A study of Mus musculus with 45 samples.

Results

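The enzymes and regulators of cholesterol synthesis were followed in colonic epithelium, the sheet of cells facing the lumen of the colon, through the 8 genes Hmgcs1, Fdps, Idi1, Fdft1, Sqle, Cyp51, Srebf2 and Insig1. They were chosen by gene symbol from the RNA-seq count table, where each matched 1 of 24918 gene entries, and all 8 were among the 12961 entries with enough counts to be tested. Male C57BL/6J mice, labelled C57BL/6, were put on lard-based diets at 6 weeks of age, with 5 mice in each RNA-seq group. Control mice (LF) ate a diet with 10% fat for 20 weeks, obese mice (HF) ate a diet with 60% fat for 20 weeks, and formerly obese mice (HFLF) ate the 60% diet for 15 weeks and then the 10% diet for 5 weeks. The labels name no engineered allele in any group, and the epithelium was released from the colon with EDTA without sorting of its cell types.

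Cells make cholesterol from acetyl-CoA through the mevalonate pathway, which also supplies the isoprenoids used for protein prenylation, dolichol and ubiquinone. When sterols in the endoplasmic reticulum run low, the transcription factor SREBP2, encoded by Srebf2, is carried to the Golgi, cut and released to the nucleus, where it turns on the enzymes of the pathway. When sterols are plentiful, the protein encoded by Insig1 holds the SREBP complex back in the endoplasmic reticulum.

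SREBP2 binds the sterol regulatory element, and 3 promoters are shown because they differ in their matches to the forms of it sought here. In the RefSeq promoters of GRCm38.p6 (250 bases before to 50 bases after the transcription start), 5 of the 8 genes had an entry, while Sqle, Fdft1 and Fdps had none. The sequences read 5′ to 3′ on the strand of the gene. Capitals mark the element TCACCCCAC, its looser form TCACNCCA, which the longer element contains, and CCAAT boxes (ATTGG where the box lies on the other strand).

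Hmgcs1 promoter, chr13:119690101-119690400, plus strand: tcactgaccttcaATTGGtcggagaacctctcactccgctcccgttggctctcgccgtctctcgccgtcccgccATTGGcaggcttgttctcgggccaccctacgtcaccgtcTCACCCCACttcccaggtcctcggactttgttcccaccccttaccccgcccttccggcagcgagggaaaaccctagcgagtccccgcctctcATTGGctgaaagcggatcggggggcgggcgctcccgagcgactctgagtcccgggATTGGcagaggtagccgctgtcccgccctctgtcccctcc
Srebf2 promoter, chr15:82147019-82147318, plus strand: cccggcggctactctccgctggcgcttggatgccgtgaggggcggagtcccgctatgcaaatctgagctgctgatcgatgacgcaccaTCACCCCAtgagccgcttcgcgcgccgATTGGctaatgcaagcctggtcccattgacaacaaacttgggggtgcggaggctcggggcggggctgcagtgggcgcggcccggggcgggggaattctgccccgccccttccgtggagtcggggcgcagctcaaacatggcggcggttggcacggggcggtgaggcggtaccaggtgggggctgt
Cyp51 promoter, chr5:4104648-4104947, minus strand: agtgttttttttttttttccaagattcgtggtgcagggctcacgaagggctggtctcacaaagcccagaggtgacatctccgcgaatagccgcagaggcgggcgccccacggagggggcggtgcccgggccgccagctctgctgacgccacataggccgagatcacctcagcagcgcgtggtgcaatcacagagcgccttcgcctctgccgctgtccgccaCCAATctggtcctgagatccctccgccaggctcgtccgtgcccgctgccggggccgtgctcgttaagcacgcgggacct

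The full element was in the Hmgcs1 promoter only, at bases 114 to 122, and in 0.551% of the 32851 promoters of the table on either strand. The looser form was in the promoters of Hmgcs1 and Srebf2 (4.36% of all promoters). Those of Cyp51, Idi1 and Insig1 matched neither form, and other variants of the element were not sought. CCAAT was in 5 of 5 promoters, with 4 matches in Hmgcs1 (37.4% of all promoters), and the GC box GGGCGG, left in lower case, was in 5 of 5 as well (35.7%). The matches describe letters in these windows and not bound sites. The Hmgcs1 window ends at 119690400, before the gene start of 119690462 in the count table, so the sources place this start differently.

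Totals over genes were 15230391 to 22762095 counts in the 15 RNA-seq libraries, the largest being HFLF replicate 3, and the labels named no sequencing batch. In CPM (counts scaled by library total and a TMM factor), 9 epithelial markers summed to 14530.8 to 17402.6, 6 smooth muscle markers to 0.222 to 2.7 and 6 adipocyte markers to 2.81 to 12.1, with Plin1, Lep and Retn at 0 counts throughout. Summed markers of colonocytes had medians of 6986.2 CPM in LF, 6996.4 CPM in HF and 11359.9 CPM in HFLF, and those of small intestine, of which Apoa1, Apoa4 and Lct had at most 13 counts in a library, 813.9, 1111.5 and 1198.4 CPM. Because these were bulk samples, fewer cells of a type and less RNA per cell cannot be told apart.

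None of the 8 genes passed the cutoffs in any comparison of the diets, and their fitted differences were small. The cutoffs were those of the study's methods, namely a fold change over 1.2 in either direction with p under 0.01 and a Benjamini-Hochberg adjusted p under 0.25, here from edgeR's quasi-likelihood test over all genes. Of the 8 genes 0 were called in HF against LF, where 1.58% of all tested genes were called. The count was 0 in HFLF against LF (3.72% of all tested genes) and 0 in HFLF against HF (2.65%), and DESeq2 also called 0 in each. Shares this low leave little room for a call among 8 genes. At an unadjusted p under 0.05 the count was 0 in each comparison, where 10.9%, 16.7% and 13.4% of all tested genes passed. In 0 of the 8 genes did all mice of a group lie above or below all mice of another, as they did for 2.47%, 3.62% and 3.38% of all tested genes. The 3 comparisons share libraries and are not independent of each other. Nor are the 8 genes separate results, since their levels moved together from mouse to mouse.

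**Figure D1:**
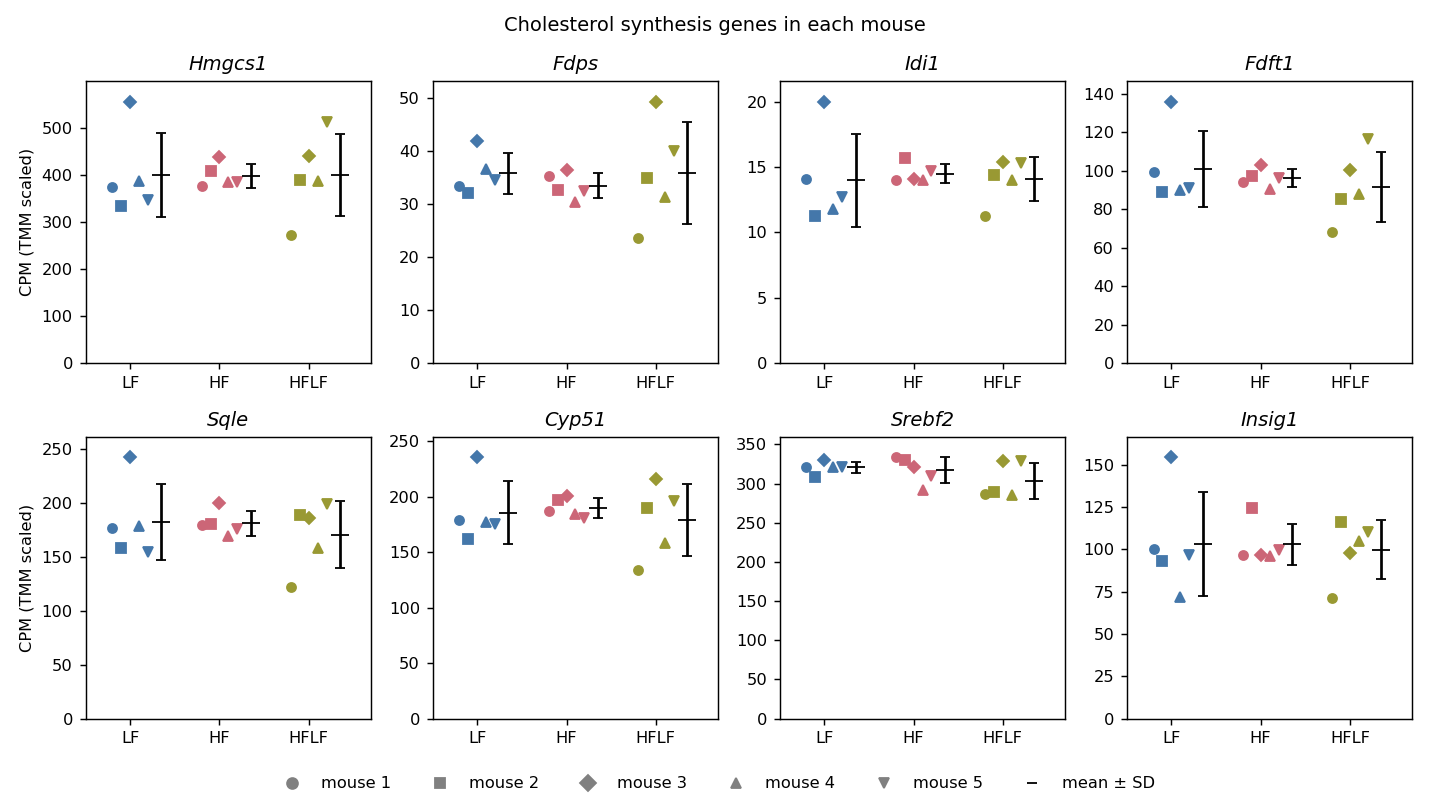
Level of each of the 8 genes in CPM (y axes) in the LF, HF and HFLF mice, with 1 symbol shape per replicate number and the mean ± SD of 5 mice per group. The groups overlap in every panel, LF replicate 3 is the highest LF mouse for 8 of 8 genes, and the HF mice have the smallest spread of log2 CPM for 7 of 8 genes.

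The first genes of the pathway act before squalene. Hmgcs1 encodes the cytosolic synthase of HMG-CoA, an early intermediate of the pathway, and lies on chromosome 13 (119690462 to 119708077, plus strand; positions are given in mm10). In replicates 1 to 5 of each group, it measured 374.0, 334.1, 554.9, 386.1 and 347.1 CPM in LF, 375.3, 407.7, 438.0, 384.4 and 384.3 CPM in HF, and 273.1, 389.6, 440.5, 387.7 and 511.2 CPM in HFLF. LF replicate 3 stood far above the other LF mice and HFLF replicate 1 below every other mouse, while the group means almost coincided, at 399.3 ± 89.4 in LF, 397.9 ± 25.4 in HF and 400.4 ± 87.1 CPM in HFLF (SD, n = 5 each). In the edgeR fit, the fold was 0.997 (95% interval 0.81 to 1.23, adjusted p = 0.995) in HF over LF, 1.00 (95% interval 0.816 to 1.23, adjusted p = 0.992) in HFLF over LF and 1.01 (95% interval 0.819 to 1.24, adjusted p = 0.99) in HFLF over HF.

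Idi1 encodes the isomerase that interconverts the basic isoprenoid units and lies on chromosome 13 (8885606 to 8892396, plus strand). It had the fewest counts of the 8 genes, with 14.1, 11.3, 20, 11.8 and 12.7 CPM in LF, 14, 15.7, 14.1, 14 and 14.7 CPM in HF, and 11.3, 14.4, 15.4, 14 and 15.3 CPM in HFLF. LF replicate 3 was again the highest mouse of all, and the HF mice were close to each other. In log2 fold changes (± SE), HF against LF gave 0.05 ± 0.13 (adjusted p = 0.928), HFLF against LF gave 0.01 ± 0.13 (adjusted p = 0.976) and HFLF against HF gave -0.04 ± 0.13 (adjusted p = 0.932).

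Fdps encodes the synthase of farnesyl diphosphate, the branch point between sterols and the other isoprenoids, and lies on chromosome 3 (89093588 to 89101967, minus strand). It measured 33.4, 32.2, 42, 36.7 and 34.5 CPM in LF, 35.3, 32.6, 36.4, 30.5 and 32.4 CPM in HF, and 23.6, 35, 49.3, 31.4 and 40.1 CPM in HFLF. Here HFLF replicate 3 was the highest of the 15 mice and HFLF replicate 1 the lowest, so that the HFLF range enclosed both others. The log2 fold changes were -0.10 ± 0.14 (adjusted p = 0.856) in HF against LF, 0.0077 ± 0.14 (adjusted p = 0.986) in HFLF against LF and 0.10 ± 0.14 (adjusted p = 0.805) in HFLF against HF.

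The next genes make squalene and turn it into sterols. Fdft1 encodes squalene synthase, the first step committed to sterols, and lies on chromosome 14 (63145150 to 63177793, minus strand). It measured 99.4, 89, 135.8, 89.9 and 91.1 CPM in LF, 94.4, 97.1, 103.1, 90.4 and 96.1 CPM in HF, and 67.9, 85.2, 100.6, 88 and 116.4 CPM in HFLF. LF replicate 3 stood apart from the other LF mice, which overlapped with both other groups. HFLF against LF gave the largest fitted difference of any of the 8 genes, a log2 fold change of -0.14 ± 0.12 and a fold of 0.907 (95% interval 0.756 to 1.09, adjusted p = 0.61). HF against LF gave -0.07 ± 0.12 (adjusted p = 0.892) and HFLF against HF gave -0.07 ± 0.12 (adjusted p = 0.86). Fdft1 overlaps Ctsb, a lysosomal protease gene on the other strand, by 774 bases. Ctsb had 9235 to 14175 counts per library, and since the strand setting of the counting was not given in the sources used here, part of the Fdft1 count is uncertain.

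Sqle encodes squalene epoxidase, the first oxygen-requiring step, and lies on chromosome 15 (59315092 to 59331193, plus strand). It measured 177.2, 158.4, 242.3, 178.5 and 154.8 CPM in LF, 180.0, 180.8, 200.5, 169.5 and 175.9 CPM in HF, and 122.5, 188.5, 185.7, 158.6 and 198.9 CPM in HFLF. LF replicate 3 was the highest and HFLF replicate 1 the lowest of all 15 mice. For Sqle the fold was 0.995 (95% interval 0.831 to 1.19, adjusted p = 0.993) in HF over LF, 0.937 (95% interval 0.783 to 1.12, adjusted p = 0.747) in HFLF over LF and 0.942 (95% interval 0.787 to 1.13, adjusted p = 0.821) in HFLF over HF.

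Cyp51 encodes the demethylase that acts on lanosterol and lies on chromosome 5 (4080674 to 4104697, minus strand). It measured 179.3, 161.7, 235.4, 177.2 and 175.0 CPM in LF, 186.7, 196.7, 201.0, 184.4 and 180.6 CPM in HF, and 134.2, 189.8, 216.0, 158.4 and 196.1 CPM in HFLF. The extremes were the same as for Sqle, with LF replicate 3 highest and HFLF replicate 1 lowest. The log2 fold changes were 0.03 ± 0.11 (adjusted p = 0.955) in HF against LF, -0.05 ± 0.11 (adjusted p = 0.85) in HFLF against LF and -0.09 ± 0.11 (adjusted p = 0.797) in HFLF against HF.

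The remaining pair regulates the enzymes. Srebf2, the gene of SREBP2, lies on chromosome 15 (82147269 to 82204960, plus strand), and the microRNA gene Mir33 inside it had 0 counts in these mRNA libraries. Srebf2 measured 321.5, 309.1, 329.7, 321.1 and 321.6 CPM in LF, 333.4, 330.6, 321.0, 291.5 and 309.8 CPM in HF, and 286.2, 289.3, 328.7, 285.3 and 329.2 CPM in HFLF. The LF mice were close together, and HFLF replicates 3 and 5 stood above the other HFLF mice. It was the most evenly measured of the 8 genes, and the fold was 0.99 (95% interval 0.918 to 1.07, adjusted p = 0.954) in HF over LF, 0.948 (95% interval 0.879 to 1.02, adjusted p = 0.475) in HFLF over LF and 0.958 (95% interval 0.888 to 1.03, adjusted p = 0.654) in HFLF over HF.

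Insig1 encodes the sterol-dependent retention protein, is itself a target of SREBP2 and lies on chromosome 5 (28071412 to 28078662, plus strand). It measured 100.5, 93.2, 154.3, 71.9 and 96.7 CPM in LF, 96.9, 124.7, 96.9, 96.1 and 99.9 CPM in HF, and 71, 116.0, 97.7, 104.8 and 110.0 CPM in HFLF. LF held both the highest mouse, replicate 3, and the lowest mouse but 1, replicate 4, and in HF replicate 2 stood above the others. For Insig1 the fold was 0.996 (95% interval 0.789 to 1.26, adjusted p = 0.995) in HF over LF, 0.967 (95% interval 0.766 to 1.22, adjusted p = 0.913) in HFLF over LF and 0.971 (95% interval 0.769 to 1.22, adjusted p = 0.947) in HFLF over HF.

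**Figure D2:**
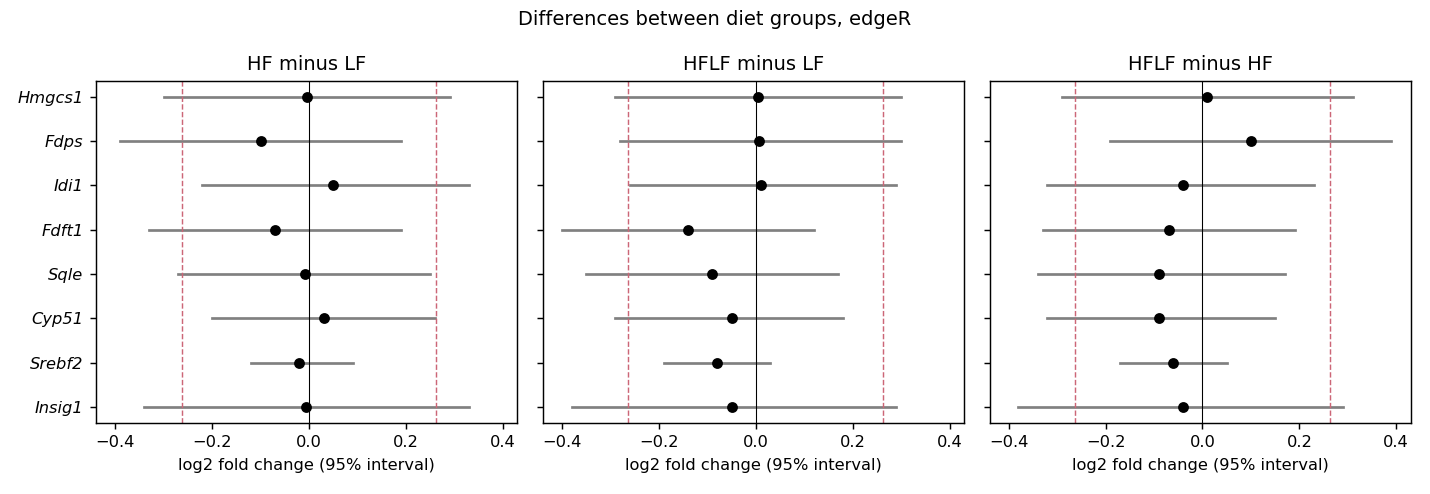
Log2 fold change of the 8 genes (x axis) with its 95% interval in HF against LF, HFLF against LF and HFLF against HF, from the edgeR fit of 5 mice per group; dashed lines mark a 1.2-fold change. All 24 intervals cover 0, and only the 3 intervals of Srebf2 lie between the dashed lines.

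The intervals give the precision of these comparisons. Over the 24 intervals of 8 genes in 3 comparisons, the lower bounds reached down to a fold of 0.756 and the upper bounds up to 1.31. Only the 3 intervals of Srebf2 lay wholly within a 1.2-fold change in both directions, and those of the other 7 genes reached past 1.2-fold in at least 1 direction. The median log2 fold change of the 8 genes was -0.01 in HF against LF, -0.05 in HFLF against LF and -0.05 in HFLF against HF, beside medians of 0.00024, -0.00065 and 0.0023 over all tested genes.

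The genes differed more in level than any did between diets. In RPKM, which divide CPM by the kilobases of merged annotated exon (mean ± SD over 15 libraries), Hmgcs1 had the highest level, 109 ± 18.5, followed by Sqle at 64.8 ± 9.59, Srebf2 at 55.9 ± 3.12, Cyp51 at 42.5 ± 5.52 and Insig1 at 38.5 ± 7.55 RPKM. Fdps at 24.0 ± 3.96, Fdft1 at 9.32 ± 1.46 and Idi1 at 4.95 ± 0.749 RPKM were lowest. The order of neighbours held in 15 of 15 libraries except that Sqle exceeded Srebf2 in 13 of 15 and Cyp51 exceeded Insig1 in 11 of 15, and only the ranges of Fdps and Fdft1 did not overlap. The merged exons of Fdft1, 10331 bases, were the longest of the 8 genes, which lowers its level on this scale.

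For most of the 8 genes, mice within LF and within HFLF differed widely from each other, and those within HF less. The SD of log2 CPM of Hmgcs1 was 0.29 in LF, 0.09 in HF and 0.33 in HFLF. Pooled over the groups it was 0.26, larger than that of 78.9% of all tested genes. The pooled SD was between 0.20 and 0.25 for the other 5 enzymes, beside a median of 0.13 over all tested genes. Insig1 had the largest, 0.29, and Srebf2 the smallest, 0.08, with only 18.4% of all tested genes below it. The HF group had the smallest SD of the 3 groups for 7 of the 8 genes, as it had for 47.0% of all tested genes. Without LF replicate 3 and HFLF replicate 1 the count was 4 of 8, beside 43.7%. Both libraries were picked by the values of the 8 genes, and none was left out of HF. The fall was therefore given in part by the choice, and the share over all genes is not a like background.

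Those 2 libraries held most of the extremes. LF replicate 3 was the highest of the 15 libraries for 6 of the 8 genes, which it was for 4.69% of all tested genes, and HFLF replicate 1 was the lowest for 6 of 8, which it was for 5.95%. The ratio of the first to the second was 2.03 for Hmgcs1, 1.78 for Fdps, 1.77 for Idi1, 2.0 for Fdft1, 1.98 for Sqle, 1.75 for Cyp51 and 2.17 for Insig1. It was 1.15 for Srebf2, the gene of the factor that drives the others. When each gene was expressed in SDs from its own mean over the 15 libraries and averaged over the 8 genes, LF replicate 3 had the highest mean standardized level, 1.90, and HFLF replicate 1 the lowest, -2.05, and the other 13 lay between -0.71 and 0.88. Without both libraries, the fit of HFLF against LF called 1 of the 8 genes, Hmgcs1, with a log2 fold change of 0.26 (edgeR adjusted p = 0.124). The libraries were picked after their values were seen, the highest of LF and the lowest of HFLF, so leaving them out raises this difference by construction. Of 78 alternative fits, this was the only one that called any of the 8 genes.

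**Figure D3:**
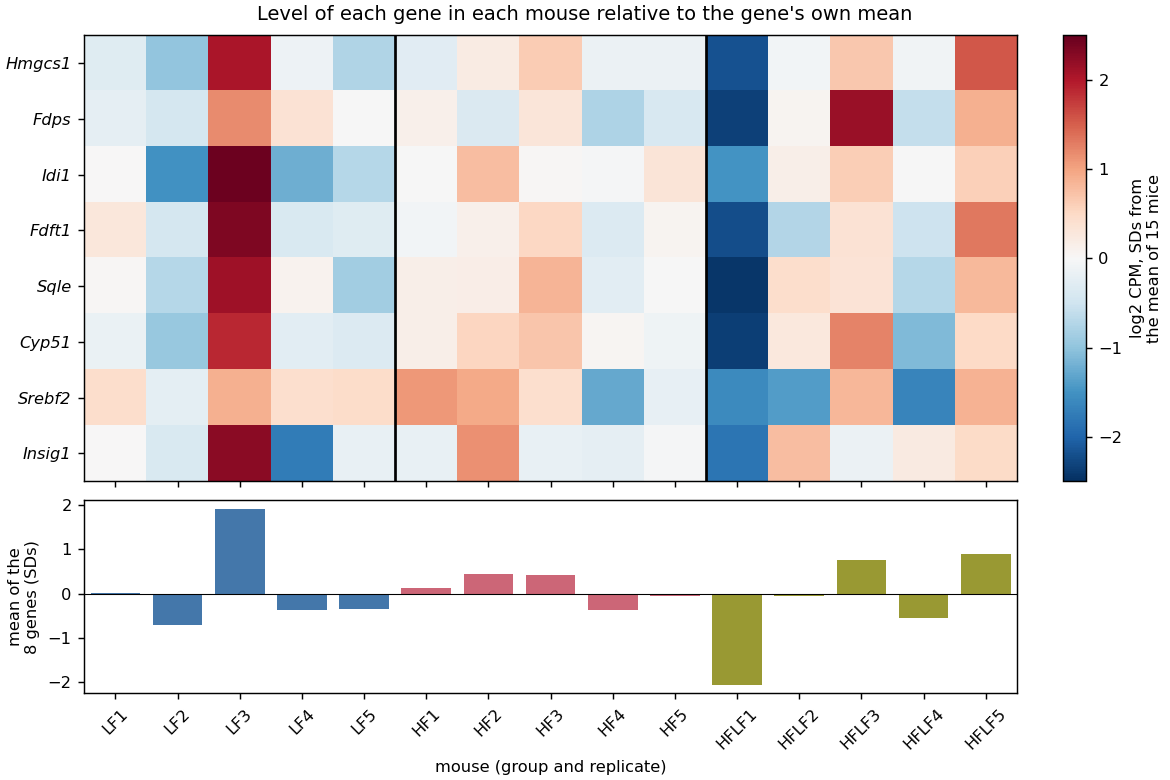
Heat map of the 8 genes in the 15 mice, as log2 CPM in SDs from each gene's own mean over the 15 libraries, above bars of the mean of the 8 genes per mouse. LF replicate 3 (1.90) and HFLF replicate 1 (-2.05) stand at the extremes, each in 6 of the 8 rows.

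The genes moved together from mouse to mouse. Over the 15 libraries, which share the same counts and scaling for all genes, the 28 pairs of the 8 genes had Pearson r of log2 CPM from 0.29 to 0.93 with a median of 0.76, given as a description. The 15 pairs of enzymes had a median of 0.85 (0.58 to 0.93). Hmgcs1 with Fdft1, Hmgcs1 with Sqle and Sqle with Cyp51 each reached 0.93. Srebf2 had a median of 0.58 with the other 7 genes, and its r with Insig1, 0.29, was the lowest of all. With group means removed, the median over all pairs was 0.80. Within single groups of 5 mice the medians were 0.91 in LF, 0.49 in HF and 0.86 in HFLF. The 2 extreme libraries were picked by the values of these same genes, so leaving them out tends to lower r by construction. Without them the median was 0.53 over all pairs (-0.11 to 0.80) and 0.65 over the enzymes. It was 0.38 between Srebf2 and the others and 0.24 between Insig1 and the enzymes. With group means removed as well, these medians were 0.55, 0.56, 0.66 and -0.07, so the lower place of Srebf2 did not hold there. Spearman's rho, which depends less on extremes, had a median of 0.68 with all 15 libraries and 0.54 without both.

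Several of the genes most like the 8 were further enzymes of the same pathway. Of 11028 other tested genes with a mean of at least 50 counts, the 10 with the highest r with the mean standardized level of the 8 genes included Sc4mol (0.95), Aacs (0.94), Lss (0.92), Mvd (0.88), Hsd17b7 (0.83), Dnajc10 (0.81), Nup37 (0.78) and Thrap3 (0.77). Sc4mol, Lss, Mvd and Hsd17b7 encode sterol synthesis enzymes, and Aacs encodes an enzyme that makes acetoacetyl-CoA. Over all 11028 genes the median r was -0.02 and 0.363% exceeded 0.7, while 7 of the 15 other sterol synthesis enzymes did, with a median of 0.64. Without LF replicate 3 and HFLF replicate 1 these counts were 0.617% and 4 of 15, and the median of the 15 enzymes was 0.50. Both libraries were picked as extremes of the 8 genes, so leaving them out by itself changes r with their mean. Of the sterol enzymes named, Sc4mol was then at 0.89, Lss at 0.70, Hsd17b7 at 0.52 and Mvd at 0.50, and of the other genes named, Aacs was at 0.77, Dnajc10 at 0.71, Nup37 at 0.49 and Thrap3 at 0.43. Of 15 fatty acid synthesis genes 0 exceeded 0.7, with a median of 0.22 over the 15 libraries. Without LF replicate 3 and HFLF replicate 1 the count was 0 and the median -0.23.

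Sums of some cell type markers varied along with the 8 genes. Across the 15 libraries, the r of their mean standardized level with the summed CPM of 7 enteroendocrine markers was 0.69, and 0.86 without LF replicate 3 and HFLF replicate 1. Values without both are descriptions only, since these libraries were picked by the values of the 8 genes. The r with 7 goblet cell markers was 0.65 and 0.72 without both, and that with 5 stem cell markers 0.57 and 0.43. For colonocyte markers it was -0.14 and 0.45 without both, for epithelial markers -0.24 and 0.16, for proliferation markers 0.29 and 0.51, and for total counts 0.12 and 0.54. The corresponding values were -0.18 and 0.38 for small intestinal, 0.41 and 0.64 for fibroblast, 0.01 and -0.17 for immune, -0.26 and 0.42 for adipocyte, -0.37 and -0.32 for endothelial and -0.20 and -0.24 for smooth muscle markers. Adipocyte, endothelial and smooth muscle sums were at most 12.1, 8.79 and 2.7 CPM, so these r rest on few counts. Of their markers, 1, 1 and 0 had enough counts to be tested. HFLF replicate 1, the lowest for the 8 genes, ranked first of 15 for small intestinal markers, 2 for colonocyte, 11 for goblet and 13 for enteroendocrine markers. LF replicate 3 ranked 2 for stem cell, 4 for goblet, 5 for enteroendocrine and 15 for epithelial markers. The part of cell composition in the spread of the 8 genes was not tested.

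**Figure D4:**
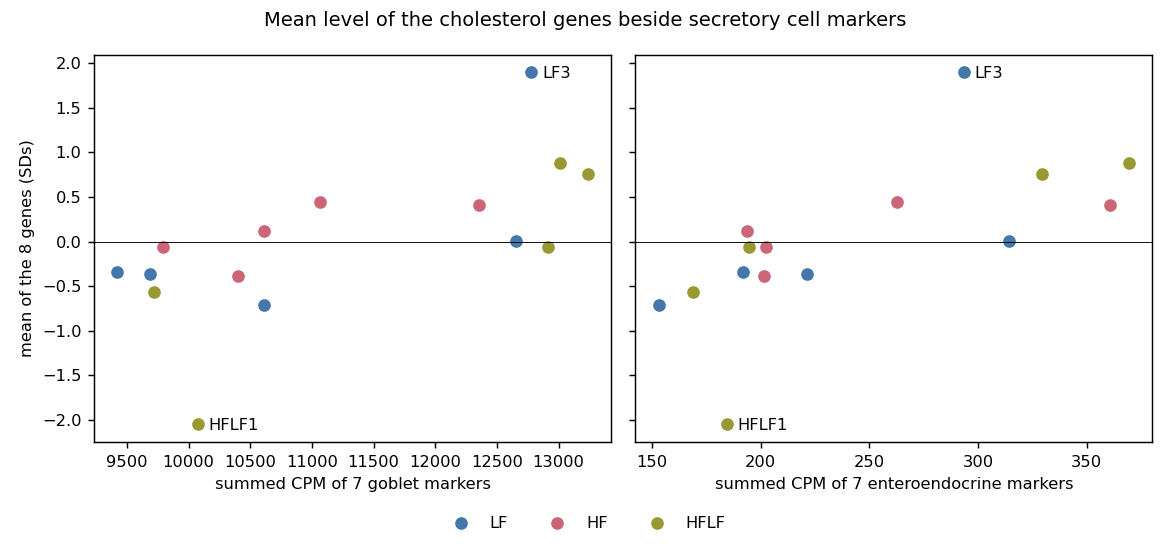
Mean standardized level of the 8 genes (y axis, in SDs) against the summed CPM of 7 goblet and 7 enteroendocrine markers (x axes), 1 point per mouse in the LF, HF and HFLF groups. The mice with more marker RNA tend to lie higher (r = 0.65 and 0.69 over 15 libraries), LF replicate 3 lies highest and HFLF replicate 1 lowest.

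The rest of the pathway gave no call either. Of 15 other sterol synthesis enzymes, 0 were called in each comparison, beside 1.58%, 3.72% and 2.65% of all tested genes. Shares this low leave little room for a call in so short a list. Median log2 fold changes were 0.003 in HF against LF, -0.03 in HFLF against LF and -0.04 in HFLF against HF.

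Genes of SREBP control and of the non-sterol branch were not called. Of 16 genes of SREBP control and its further targets, and of 12 genes of the isoprenoid branch (prenylation, dolichol and ubiquinone), 0 were called in each of the 3 comparisons. The shares over all tested genes were again 1.58%, 3.72% and 2.65%, so few calls could be looked for in these lists.

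Calls were made in the list of sterol storage and sensing, which holds genes of sterol esters, transport and the sensor LXR with its targets. In the main fit they were Mylip, Lipa, Soat1 and Cyp27a1, and no gene of sterol export and no LXR gene was called. Of 17 listed genes 15 were tested (Lcat and Ch25h were not). Of these, 3 were called in HF against LF, 2 in HFLF against LF and 1 in HFLF against HF. Over all tested genes, 1.58%, 3.72% and 2.65% were called. Together the 4 lists beside the 8 genes held 60 genes, of which 58 were tested, and the calls were the same 3, 2 and 1. Mylip, which encodes a ubiquitin ligase induced by the sterol sensor LXR, measured 44, 49.5, 43.5, 37.9 and 43.9 CPM in LF, 36.4, 39.9, 28.5, 30.2 and 32.1 CPM in HF, and 36, 37.7, 30, 37.8 and 28.4 CPM in HFLF. Every HFLF mouse lay below every LF mouse, though only just, and HF replicate 2 lay above LF replicate 4. Mylip fell in HF against LF (-0.39 ± 0.10 on the log2 scale, adjusted p = 0.142) and in HFLF against LF (-0.37 ± 0.10, adjusted p = 0.0658). The call in HF was lost without LF replicate 2 (-0.34, adjusted p = 0.335), HF replicate 3 (-0.34, adjusted p = 0.359), HF replicate 4 (-0.36, adjusted p = 0.278) or HF replicate 5 (-0.38, adjusted p = 0.329).

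Lipa, which encodes the lysosomal lipase that frees cholesterol from its esters, measured 45.1, 53, 50.7, 65.1 and 51.4 CPM in LF, 59.9, 58.4, 63.4, 75.7 and 66 CPM in HF, and 75.8, 64.3, 67.4, 64.8 and 58.6 CPM in HFLF. Most HF and HFLF mice lay above most LF mice, with LF replicate 4 among the higher values. Lipa rose in HF against LF (0.29 ± 0.09 on the log2 scale, adjusted p = 0.244) and in HFLF against LF (0.32 ± 0.09, adjusted p = 0.079). With 1 library left out, the call in HF held only without LF replicate 4, HF replicate 2, HFLF replicate 1 or HFLF replicate 5, and otherwise the log2 fold change was 0.22 to 0.31 with an adjusted p of 0.266 to 0.463. The call in HFLF was lost without LF replicate 1 (0.26, adjusted p = 0.191) or HFLF replicate 1 (0.27, adjusted p = 0.159), where the fold passed 1.2 but p did not pass 0.01.

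Soat1, which encodes an enzyme that esterifies cholesterol for storage, measured 66.2, 65.7, 67.3, 68.3 and 60.7 CPM in LF, 59.9, 50.1, 57.6, 51.3 and 49.9 CPM in HF, and 51.6, 58.9, 71.5, 55 and 71.5 CPM in HFLF. Every HF mouse was below every LF mouse, and HFLF mice lay across both. Soat1 fell in HF against LF (-0.29 ± 0.09 on the log2 scale, adjusted p = 0.209), and HFLF against LF gave -0.09 ± 0.09 (adjusted p = 0.645). The call was lost without LF replicate 1, 2 or 3 or HF replicate 2, 3, 4 or 5, where the log2 fold change was -0.31 to -0.26 with an adjusted p of 0.261 to 0.412.

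Cyp27a1, which encodes sterol 27-hydroxylase, measured 23.5, 28.4, 24.1, 18.6 and 26.8 CPM in LF, 19, 23, 16.8, 19.8 and 21.9 CPM in HF, and 25.9, 26.5, 20.4, 29.3 and 24.9 CPM in HFLF. It was higher in HFLF than in HF (0.33 ± 0.11, adjusted p = 0.195), with HFLF replicate 3 among the HF values. The call held with LF replicate 2, 4 or 5, HF replicate 2 or HFLF replicate 3 left out, and with any other library left out the log2 fold change was 0.28 to 0.37 with an adjusted p of 0.22 to 0.365.

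**Figure D5:**
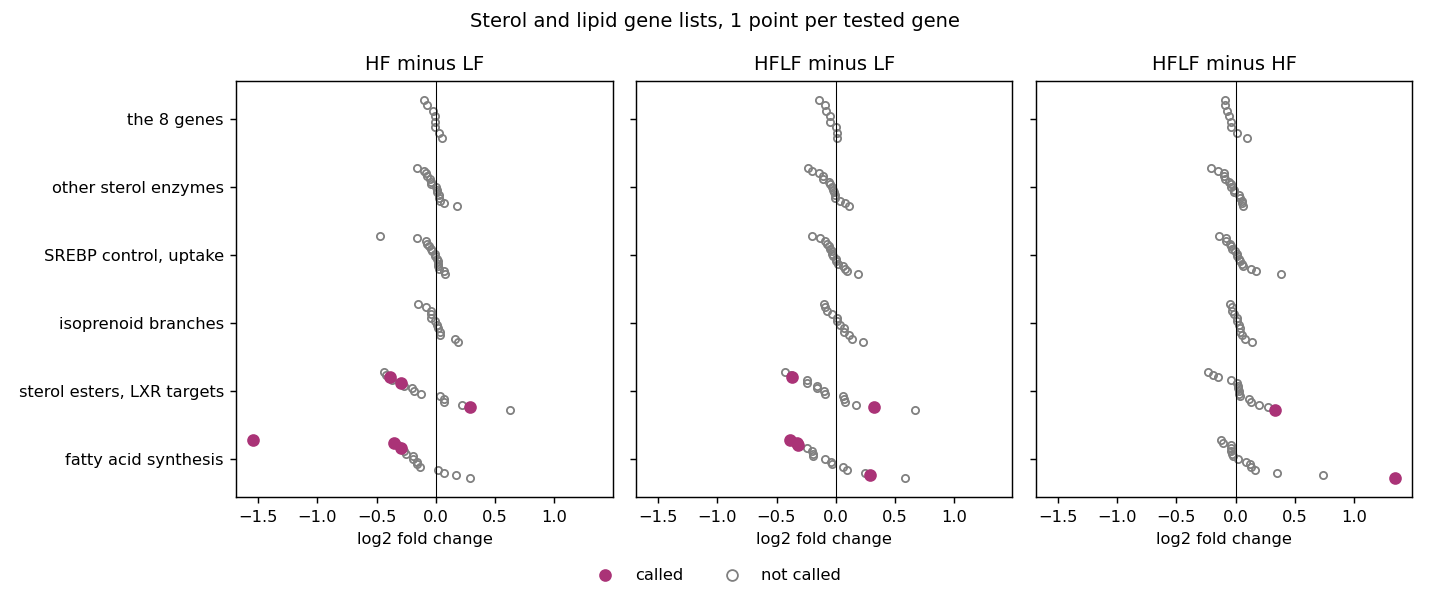
Log2 fold change (x axes) of every tested gene of 6 lists (rows) in HF against LF, HFLF against LF and HFLF against HF, with filled points for called genes. No point of the 8 genes, of the other sterol enzymes, of SREBP control or of the isoprenoid branch is filled. Sterol storage and sensing has 3, 2 and 1 filled points and fatty acid synthesis 3, 4 and 1, the lowest being Scd1 in HF. Over all tested genes, 1.58%, 3.72% and 2.65% were called.

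Fatty acid synthesis, the neighbouring lipid pathway that SREBP1c controls, held calls in the same libraries. Of 15 listed genes 3 were called in HF against LF, 4 in HFLF against LF and 1 in HFLF against HF, beside 1.58%, 3.72% and 2.65% of all tested genes. Scd1, the stearoyl-CoA desaturase, measured 45.5, 57.2, 50.3, 61.9 and 65.9 CPM in LF, 18.6, 18.7, 17.8, 22.9 and 18.7 CPM in HF, and 41, 35.8, 67.3, 59.5 and 41.2 CPM in HFLF. All HF mice lay far below all others. Scd1 fell in HF to a fold of 0.344 (95% interval 0.274 to 0.433, adjusted p = 0.000224) of LF, and it was higher in HFLF than in HF by a fold of 2.54 (95% interval 2.02 to 3.19, adjusted p = 0.000747). In HF against LF, Gpam fell (-0.35 ± 0.07 on the log2 scale, adjusted p = 0.0723), as did Acss2 (-0.29 ± 0.06, adjusted p = 0.0941). In HFLF against LF, Acss2 (-0.32 ± 0.06, adjusted p = 0.0253), Gpam (-0.33 ± 0.07, adjusted p = 0.0276) and Fads2 (-0.39 ± 0.09, adjusted p = 0.0301) fell, whereas the 4th call, Elovl6, a fatty acid elongase gene outside the naming rule and added after its value was seen, rose (0.29 ± 0.08, adjusted p = 0.0813), with every HFLF mouse above every LF mouse. The call of Elovl6 was lost without HFLF replicate 3 (0.25, adjusted p = 0.176). The call of Acss2 in HF was lost without LF replicate 2 (-0.24, adjusted p = 0.271) or HF replicate 3 (-0.25, adjusted p = 0.285). Fasn, Acaca, Acacb and Acly of the same list were not called in any comparison of the main fit. In HF over LF their folds were 1.01, 0.915, 1.22 and 0.875 (edgeR adjusted p = 0.949, 0.349, 0.507 and 0.342). These genes are also outside the naming rule and were added after their values were seen. The difference between the sterol and the fatty acid list was not tested.

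DNA methylation was compared between HF and LF through a list of 8199 differentially methylated regions (DMRs) from whole-genome bisulfite sequencing, of which 4123 were hypermethylated and 4076 hypomethylated in HF. Of the 8 genes 1 had a DMR within 10 kb of its transcription start, as had 9.58% of all tested genes, and 5 had one within 100 kb, as had 56.0%. The nearest was inside Fdft1. This hypermethylated region of 11 bases with 2 CpGs lay 2614 bases downstream of the transcription start, in intron 3 of the transcript NM_010191, which has 10 exons, and in intron 1 of NM_001360211, which has 8. It is shown on the plus strand, with the DMR in capitals and 70 bases on each side, because it is the only DMR inside one of the 8 genes.

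Fdft1 intronic DMR, mm10, chr14:63175099-63175249: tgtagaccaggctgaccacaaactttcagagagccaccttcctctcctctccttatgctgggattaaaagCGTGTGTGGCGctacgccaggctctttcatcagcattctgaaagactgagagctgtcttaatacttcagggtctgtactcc

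Only 3 CpGs lie in the whole window, 2 of them in the DMR. The list holds no value per mouse, so the size of the methylation difference and its spread were not computed here. Fdft1 itself gave a log2 fold change of -0.07 ± 0.12 (adjusted p = 0.892) in HF against LF. The next nearest DMRs were 14.1 kb from the start of Fdps, beyond the other end of that gene, and 29.0 kb upstream of Srebf2, both hypomethylated. Those nearest to Cyp51 and Insig1 were hypermethylated and lay 69.0 and 79.7 kb upstream. For Hmgcs1, Idi1 and Sqle the nearest were 146.3, 154.0 and 366.2 kb away.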

How the data were processed

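RNA-seq libraries (TruSeq Stranded mRNA) came from the colonic epithelium of 15 mice, 5 per diet. The authors mapped reads to mm10 with TopHat2 2.0.4 and deposited raw counts per gene from HTSeq, while the annotation release and strand setting were not given in the sources used here. They also deposited DESeq2 tables of fold changes and p-values, and bisulfite PCR methylation fractions, neither used here, and a list of DMRs from Bismark alignments, used by position and direction (hyper or hypo).

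Groups and replicate numbers follow the labels, which name no batch, and n counts mice. Counts of 12961 genes kept by filterByExpr were fitted in R 4.3.3 with edgeR 4.0.16 (TMM, all 15 libraries, quasi-likelihood, group only, two-sided). log2 CPM used a prior count of 2, and RPKM were computed from RefSeq exons. On simulated counts of 12899 genes for HF minus LF, the fit recovered 184 of 200 genes changed 2-fold (92.0%), with 42 false calls among unchanged genes. In HFLF minus LF of the same simulation, where no gene was changed, it made 0 calls. Alternatives were DESeq2 1.42.0, other scalings and filters, the compared groups alone, a replicate block, a GC correction and single libraries left out. A fit without both LF replicate 3 and HFLF replicate 1 was added after seeing the data.

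The 8 genes and the lists were chosen with earlier results of these data known. Named beside the 8 were each called gene of the sterol, SREBP, isoprenoid and sterol storage lists, at most 3 called fatty acid genes per comparison by smallest p, and the 10 genes most like the 8, and some items that this rule gives are not reported here. Correlations are descriptions. Promoter sequences are from RefSeq (GRCm38.p6) and motifs were sought on both strands.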

Additional observations from a re-analysis of the deposited data

Results flagged for a closer look

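Of 24 sets of 5 mice (8 genes in 3 groups), 5 held a mouse whose gap to its nearest neighbour took up more of the group's range than Dixon's 95% critical value of 0.71, which chance alone gives in about 1 in 20 sets. In 4 of them the mouse was LF replicate 3, so these are not independent of each other. Hmgcs1 measured 555 CPM in LF replicate 3, with a gap of 0.764 of the LF range. Fdft1 measured 136 CPM there (0.778), Sqle 242 CPM (0.729) and Cyp51 235 CPM (0.761). The 5th was Insig1 in HF replicate 2, at 125 CPM, with a gap of 0.867 of the HF range, while LF replicate 3 was the highest mouse for Insig1 as well. HFLF replicate 1, the lowest of the 15 mice for 6 of the 8 genes, did not pass this criterion for any gene.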

How the results depend on the processing

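Single log2 fold changes of the 8 genes lay so close to 0 that their sign turned under other settings, with none of these called. In HF against LF, Hmgcs1 turned to 0.004 with library totals, 0.01 with the replicate block and 0.01 with the block and a GC correction, Sqle to 0.003, 0.002 and 0.01 (0.002 with GC alone), and Insig1 to 0.0003, 0.01 and 0.02 (0.004 with GC alone). In HFLF against LF, Hmgcs1 turned to -0.01 with upper-quartile scaling, -0.01 with totals, -0.02 with GC and -0.02 with block and GC, Fdps to -0.003 with upper quartile, -0.01 with totals and -0.01 with the block, and Idi1 to -0.01 with totals, -0.02 with GC and -0.01 with block and GC. In HFLF against HF, Hmgcs1 turned to -0.02 with totals, -0.01 with the block, -0.02 with GC and -0.04 with both, and Srebf2 to 0.03 with GC and 0.02 with both.

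With libraries left out, the fit without LF replicate 3 and HFLF replicate 1 included, the ranges in HF against LF were -0.06 to 0.14 for Hmgcs1, -0.01 to 0.22 for Idi1, -0.11 to 0.06 for Fdft1, -0.06 to 0.12 for Sqle, -0.01 to 0.13 for Cyp51, -0.04 to 0.01 for Srebf2 and -0.11 to 0.18 for Insig1. In HFLF against LF they were -0.10 to 0.26 for Hmgcs1, -0.14 to 0.19 for Fdps, -0.06 to 0.25 for Idi1, -0.24 to 0.08 for Fdft1, -0.15 to 0.13 for Sqle, -0.13 to 0.13 for Cyp51 and -0.15 to 0.24 for Insig1. In HFLF against HF they were -0.09 to 0.12 for Hmgcs1, -0.04 to 0.22 for Fdps, -0.08 to 0.03 for Idi1, -0.17 to 0.02 for Fdft1, -0.15 to 0.01 for Sqle, -0.17 to 0.004 for Cyp51 and -0.10 to 0.06 for Insig1. Calls among the 8 genes ranged from 0 to 1 in HFLF against LF. Calls of other sterol enzymes ranged from 0 to 1 in HFLF against LF and in HFLF against HF (Mvk, without HFLF replicate 3), and of the isoprenoid branch from 0 to 1 in HFLF against LF (Nus1, without LF replicate 4). Those of sterol storage and sensing ranged from 0 to 7 (7 without LF replicate 4), 1 to 4 and 0 to 1 in the 3 comparisons, and those of fatty acid synthesis from 2 to 5 in HF against LF and 1 to 2 in HFLF against HF. The median r over the 28 pairs ranged from 0.53 to 0.81.

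With only the compared groups in the fit, SREBP control had 1 call in HF against LF. Sterol storage and sensing had 0 calls in each comparison when called by an adjusted p under 0.05 whatever the fold, and 0 in HFLF against HF with upper-quartile scaling and with library totals. Fatty acid synthesis in HF against LF had 5 calls with DESeq2 and 1 at an adjusted p under 0.05. The cause of these differences was not tested. Genes with a DMR numbered 5 within 100 kb, and promoters with the looser element 2.

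Deviations of same-numbered mice gave r from -0.23 to 0.33 over 15 pairs, with 5 over 0.1. Of the 15 libraries, 6 were closest to their own number. No level for unrelated mice was computed, and whether mice of the same number share a factor was not tested. The labels name no batch, and numbers were not taken to pair mice in the main fit. With the replicate block, calls over all genes went from 205 to 252 in HF against LF, from 482 to 537 in HFLF against LF and from 343 to 346 in HFLF against HF, and 0 of the 8 genes were called. With 1 library left out, calls over all genes ranged from 40 to 660 over the 3 comparisons, among them 44 without LF replicate 2 and 40 without HF replicate 3 in HF against LF, beside 205. Differences inside the printed 95% intervals are not excluded by these 5 mice a group, and the smallest detectable difference was not determined, since only 2-fold changes were simulated.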
